A study of Homo sapiens with 6 samples.

Results

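Autophagy encloses part of the cytoplasm in a double membrane, the autophagosome, and delivers it to lysosomes for breakdown, and mitophagy is the form of it that removes mitochondria. The ULK1 kinase starts the process, WIPI proteins bind the lipid PI3P on the forming membrane, and the ATG8 proteins of the LC3 and GABARAP families are attached to the membrane lipid. Cargo receptors such as p62 (SQSTM1) and the mitochondrial outer membrane proteins BNIP3 and NIX (BNIP3L) bind both cargo and ATG8 proteins, and the transcription factor TFEB turns on genes of lysosomes and autophagy. Cancer cells are known to use autophagy to cope with damage and starvation, and p62 itself is degraded by autophagy as well as being a target of the stress factor NRF2.

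The mRNA levels of 10 such genes are described here, among 58735 genes in all. These libraries measure RNA only, not proteins or autophagic activity. The genes were taken by name, with earlier results of these data known. They were SQSTM1, MAP1LC3A, MAP1LC3B, GABARAPL1, GABARAPL2, ULK1, WIPI1, BNIP3, BNIP3L and TFEB. The cells were MDA-MB-231, a human line from a basal-like breast adenocarcinoma that carries mutant p53. All 6 libraries came from cells labelled SCR with the genotype given as WT, taken here to be the study's cells with a non-targeting control shRNA (shSCR), although the labels themselves do not name an shRNA. If so, the controls hold the shRNA too. A group of 3 libraries (SCR_CTL) came from cells at 0 Gy, and a group of 3 (SCR_IR) from cells that received 10 Gy from a gamma irradiator, with RNA taken 24 h later. The comparison addresses how these cells respond to 10 Gy. The labels do not say whether replicates were separate cultures, so p-values measure the spread between these libraries, which may be technical, and 1 cell line, 1 dose and 1 time were measured.

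The deposited values are FPKM, fragments per kilobase of gene scaled to sequencing depth, and levels of different genes are compared below on this per-length scale only. Reads on genes, recovered from these values, ranged from 15643641 to 21928560 at 0 Gy and from 17570365 to 28861781 at 10 Gy, and mitochondrial genes took 1.98 to 2.44% and 1.94 to 2.40% of them. Of 6 genes known to be high in this line (VIM, CD44, EGFR, AXL, CAV1 and MSN), all were at 26.4 to 312 FPKM in every library. Of 6 known to be low in it, 4 had a mean under 1 FPKM, among them PGR at 0 in every library. GATA3 (means of 3.05 FPKM at 0 Gy and 2.93 at 10 Gy) and EPCAM (1.44 and 1.34) were above 1 FPKM. Among markers of other cell types, CD3E and HBB were at 0 in every library and the summed level of the list was 1.23 to 1.24 FPKM at 0 Gy and 1.90 to 1.98 at 10 Gy, nearly all of it PECAM1. Testing used limma on log2(FPKM + 1) and was limited to 12128 genes whose mean reached 1 FPKM, and a gene is called higher or lower where its Benjamini-Hochberg adjusted p over all of them was under 0.05. By this rule 35.6% of all genes were called after 10 Gy, 11.9% higher and 23.7% lower, and with a change of at least 1.3-fold 5.77% were called, 2.82% higher and 2.95% lower.

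After 10 Gy, ULK1, GABARAPL1, MAP1LC3B and BNIP3 were higher and SQSTM1 was lower. ULK1 rose to 1.43 times its control mean and SQSTM1 fell to 0.715 times, and these were the members called at a change of at least 1.3-fold as deposited. GABARAPL1 also passed 1.3-fold after upper quartile or TPM scaling and by limma-voom (log2 changes of 0.39, 0.42 and 0.44), and without replicate 1 at 0 Gy (0.38), whereas SQSTM1 was under it after TPM scaling (-0.35). MAP1LC3A, GABARAPL2, WIPI1 and BNIP3L were not called, and TFEB lay below the level filter. Thus 4 of the 9 tested members were called higher and 1 lower, beside the 11.9% and 23.7% of all genes. Because the members were chosen with earlier results of these data known, the counts and medians here are descriptive only. The median log2 change was 0.17 over the 9 and -0.04 over all genes tested, and the median size of a change regardless of sign was 0.19 against 0.13. The groups did not overlap for 7 of the 10 members, with 6 above and 1 below the controls, beside 51.9% of all genes tested, 19.1% above and 32.8% below. Every member had at least 50 reads in every library.

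**Figure D1:**
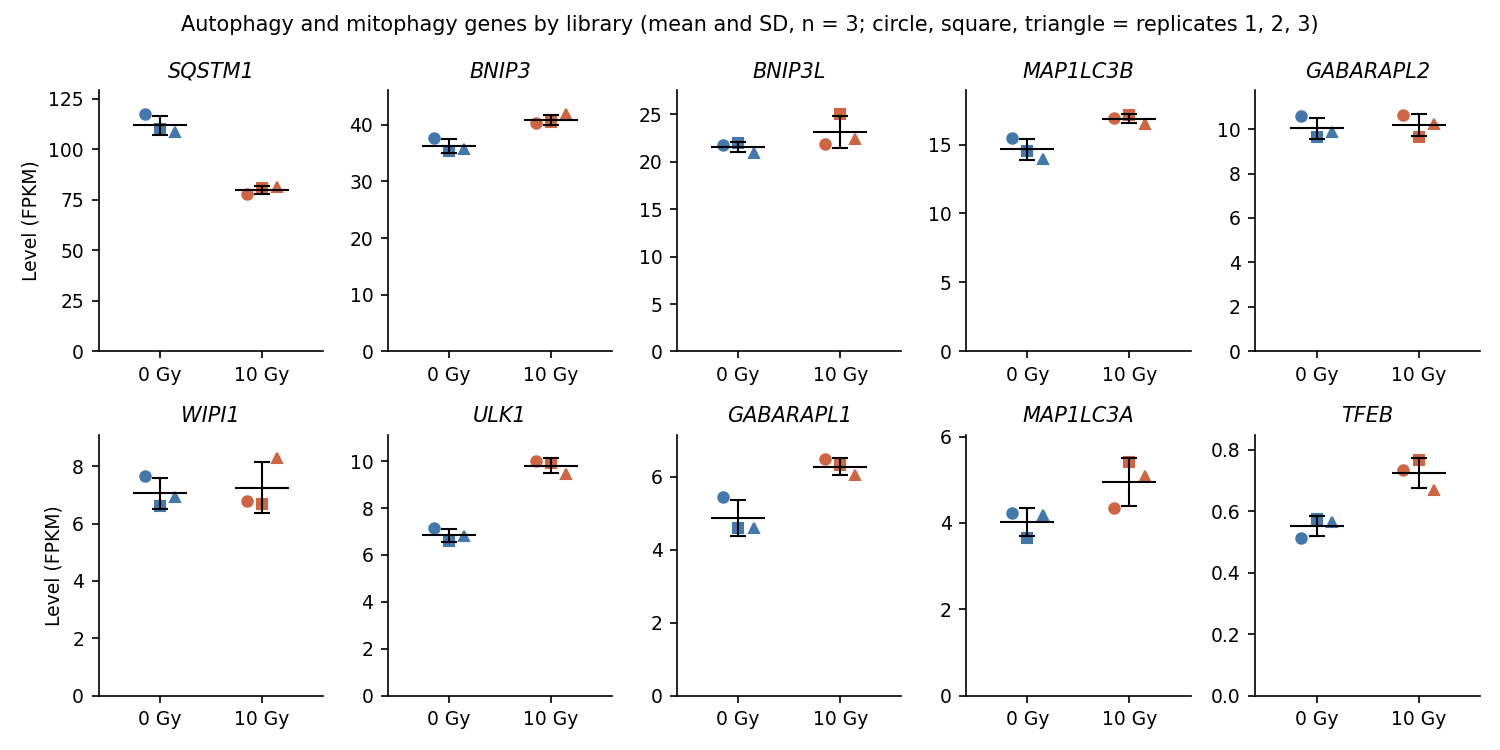
FPKM of the 10 genes in each library, with 0 Gy in blue and 10 Gy in red, each on its own axis from 0, and lines and bars giving the mean and SD of 3 libraries. SQSTM1 at 10 Gy (77.7 to 81.4) lies wholly below 0 Gy (108 to 117) and ULK1 at 10 Gy (9.45 to 10.0) wholly above 0 Gy (6.58 to 7.13), whereas GABARAPL2, WIPI1 and BNIP3L overlap.

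In control cells the levels spanned a wide range. SQSTM1 was the highest at 112 ± 4.77 FPKM (SD, n = 3), above 97.2% of all genes tested. BNIP3 followed at 36.2 ± 1.24, BNIP3L at 21.6 ± 0.533 and MAP1LC3B at 14.6 ± 0.771 FPKM. GABARAPL2 stood at 10.0 ± 0.480, WIPI1 at 7.06 ± 0.539 and ULK1 at 6.84 ± 0.278 FPKM. GABARAPL1 at 4.88 ± 0.488, MAP1LC3A at 4.03 ± 0.322 and TFEB at 0.552 ± 0.0325 FPKM closed the order. Neighbours in this order did not overlap in range except WIPI1 and ULK1, of which WIPI1 was the higher in each of the 3 libraries. The median of the 10 genes was 8.54 FPKM, against 7.11 for all genes tested. After 10 Gy the order changed only in that ULK1 passed WIPI1, with ranges that no longer overlapped, and reached the range of GABARAPL2, which stayed above it in 2 of 3 libraries.

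Of the 10 genes, 8 had promoter windows in RefSeq (build GRCh38.p14, 12 windows), and MAP1LC3A and BNIP3L are named only. The 250 bases before each start were searched on both strands for CACGTG, the E-box letters in the binding site of TFEB and its relatives. They were also searched for ACGTG, a form of the core of the hypoxia response element, of which other forms were not searched. The remaining searches were for TGACTCA, the AP-1 site, and for TGACNNNGC, the antioxidant response core used by NRF2 with small MAF proteins. ACGTG lies inside CACGTG, so these overlap. CACGTG was in 6.34% of all 35116 windows and among these genes in BNIP3 only, 134 bases before the start. ACGTG was in 18.5% of windows and here in BNIP3 and GABARAPL2, 105 bases before the start of the latter. TGACNNNGC was in 10.9% of windows and here in MAP1LC3B, 46 bases before the start, and TGACTCA was in 4.20% and in none of the 12. The MAP1LC3B start in RefSeq, 87392336, lies inside the deposited locus (87383995-87404779). Its window is therefore not at the 5′ end of the gene as counted. Windows of BNIP3 and GABARAPL2 are printed because they hold the CACGTG and ACGTG matches, 1 in a gene that rose and 1 in a gene that was not called, that of MAP1LC3B is not printed because it lies wholly inside annotated exons, and that of ULK1 because it is the member with the largest rise and held no match. They run 5′ to 3′ along the gene, leave out bases inside annotated exons, and show the matched letters in capitals.
BNIP3, chr10:131982014-131982173, minus strand: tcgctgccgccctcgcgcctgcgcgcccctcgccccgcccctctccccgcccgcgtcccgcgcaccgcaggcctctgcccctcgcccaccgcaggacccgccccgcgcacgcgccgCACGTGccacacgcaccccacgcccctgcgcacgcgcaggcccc
GABARAPL2, chr16:75566129-75566350, plus strand: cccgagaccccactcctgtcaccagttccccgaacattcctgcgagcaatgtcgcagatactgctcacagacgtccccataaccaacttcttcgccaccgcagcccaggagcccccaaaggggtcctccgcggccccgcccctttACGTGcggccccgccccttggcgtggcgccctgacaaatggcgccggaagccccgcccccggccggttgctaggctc
ULK1, chr12:131894372-131894621, plus strand: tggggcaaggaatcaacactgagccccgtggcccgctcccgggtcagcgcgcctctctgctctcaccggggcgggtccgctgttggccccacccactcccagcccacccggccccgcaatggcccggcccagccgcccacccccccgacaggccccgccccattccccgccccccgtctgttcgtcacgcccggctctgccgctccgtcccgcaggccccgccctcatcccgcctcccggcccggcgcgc
A match is only a description of letters in the window, and its absence says nothing about the factor.

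ULK1, the kinase that starts autophagosome formation (ENSG00000177169, chr12:131894651-131923167), read 7.13, 6.58 and 6.81 FPKM in the 3 libraries at 0 Gy and 10.0, 9.94 and 9.45 FPKM at 10 Gy. All 3 irradiated libraries lay above all 3 controls, as in 19.1% of all genes tested. The mean went from 6.84 ± 0.278 to 9.80 ± 0.312 FPKM (SD, n = 3), a log2 change of 0.46 with an SE of 0.042 and a 95% interval of 0.36 to 0.56 (adjusted p = 0.000700, limma). This rested on 769 to 1157 reads at 0 Gy and 1380 to 2281 at 10 Gy.

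WIPI1, which binds PI3P on the forming membrane (ENSG00000070540, chr17:68420948-68457513), read 7.65, 6.60 and 6.92 FPKM at 0 Gy and 6.77, 6.68 and 8.27 FPKM at 10 Gy. The groups overlapped, and replicate 3 at 10 Gy was the highest of the 6. The log2 change was 0.03 with an interval of -0.17 to 0.23 (limma, adjusted p = 0.805), so a change of moderate size in either direction lies within the interval.

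Among the ATG8 genes, GABARAPL1 (ENSG00000139112, chr12:10212458-10223130) changed the most. It read 5.44, 4.60 and 4.59 FPKM at 0 Gy and 6.49, 6.31 and 6.05 FPKM at 10 Gy, and all irradiated libraries lay above all controls. The mean rose from 4.88 ± 0.488 to 6.28 ± 0.223 FPKM, 1.29-fold, with a log2 change of 0.31 (SE 0.064, limma, adjusted p = 0.00979). Its relative GABARAPL2 (ENSG00000034713, chr16:75566351-75577881) read 10.6, 9.65 and 9.88 FPKM at 0 Gy and 10.6, 9.64 and 10.2 FPKM at 10 Gy. These groups overlapped almost fully, with a log2 change of 0.02 and an interval of -0.10 to 0.13 (limma, adjusted p = 0.797). Within each library the ratio of GABARAPL1 to GABARAPL2 was 0.485 ± 0.0261 at 0 Gy and 0.619 ± 0.0330 at 10 Gy, without overlap (two-sided exact permutation p = 0.1, the smallest that 3 against 3 can give).

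MAP1LC3B (ENSG00000140941, chr16:87383995-87404779) encodes the LC3 protein most used as a marker of autophagosomes. Its mRNA read 15.5, 14.5 and 13.9 FPKM at 0 Gy and 16.9, 17.2 and 16.5 FPKM at 10 Gy. The groups did not overlap, and the mean rose 1.15-fold with a log2 change of 0.19 (SE 0.043, limma, adjusted p = 0.0131). Without replicate 2 at 10 Gy the limma adjusted p was 0.0530 with a log2 change of 0.18, and without replicate 1 at 10 Gy it was 0.0486 with a change of 0.19, so the call lay near the threshold with 5 libraries. MAP1LC3A (ENSG00000101460, chr20:34546854-34560345) read 4.23, 3.66 and 4.19 FPKM at 0 Gy and 4.35, 5.41 and 5.09 FPKM at 10 Gy. All irradiated libraries were above all controls, replicate 1 by little, and the log2 change of 0.24 (interval 0.05 to 0.43) missed the threshold at an adjusted p of 0.0520 in limma. It rested on 99 to 229 reads per library. MAP1LC3A was called without replicate 1 at 10 Gy (adjusted p = 0.0262, limma) and after upper quartile, TPM or median-of-ratios scaling (0.0207, 0.0145 and 0.0340). The ratio of MAP1LC3B to MAP1LC3A was 3.65 ± 0.329 and 3.44 ± 0.396 (exact permutation p = 0.5).

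Summed over the 7 ATG8 genes in the table, the level was 37.7, 34.3 and 35.0 FPKM at 0 Gy and 40.4, 40.8 and 40.6 FPKM at 10 Gy. The mean sum at 10 Gy was 1.14 times that at 0 Gy, without overlap of the groups and with no test of the sum, and MAP1LC3B held 41.0% of it at 0 Gy and 41.6% at 10 Gy. GABARAPL2 held 28.1% and 25.1%, GABARAPL1 13.6% and 15.5%, and MAP1LC3A 11.3% and 12.2%. MAP1LC3B2 held 3.49% and 3.52% and MAP1LC3C under 1%. GABARAP is listed at only 0.767 ± 0.120 FPKM at 0 Gy and 0.814 ± 0.115 at 10 Gy, and 2344 bases of its locus are shared with a protein-coding entry on the same strand, AC120057.2, listed at 0 in every library, so its level and the sum are uncertain.

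SQSTM1 (ENSG00000161011, chr5:179806398-179838078), which encodes the ubiquitin-binding receptor p62, was the single member to fall. It read 117, 110 and 108 FPKM at 0 Gy and 77.7, 80.7 and 81.4 FPKM at 10 Gy, from 11271 to 19147 reads per library. All 3 irradiated libraries lay below all 3 controls, as in 32.8% of all genes tested, and the replicates of each group were close together. The mean went from 112 ± 4.77 to 79.9 ± 1.97 FPKM, a log2 change of -0.48 with an SE of 0.040 and an interval of -0.57 to -0.39 (limma, adjusted p = 0.000593). Falls were more frequent among highly expressed genes: of the 889 tested genes averaging 50 FPKM or more, 50.7% were called lower and 6.30% higher, with a median log2 change of -0.14. Of these 889, 33 (3.71%) had a change at or below that of SQSTM1, which is counted among them. Within each library the ratio of SQSTM1 to MAP1LC3B was 7.59, 7.54 and 7.79 at 0 Gy and 4.59, 4.70 and 4.93 at 10 Gy, without overlap (exact permutation p = 0.1, the smallest possible). SQSTM1 was lower and MAP1LC3B higher in every irradiated library than in every control. The ratio therefore could not overlap, and its test adds nothing to the results of the single genes.

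The genes whose levels followed SQSTM1 most closely over the 6 libraries were DLD, USF2, DDX39A, NQO1 and TMEM106C, each with a Pearson r of 0.999 on log2(FPKM + 1). NQO1, an antioxidant enzyme and textbook NRF2 target, went from a mean of 131 to 91.2 FPKM, TMEM106C from 38.9 to 27.2 and DLD, a mitochondrial dehydrogenase subunit, from 20.7 to 17.0 FPKM. The 6 points fall into the 2 dose groups and share library and depth, and 1237 genes (10.2% of those tested) had an r over 0.95, so this is a description of likeness only.

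BNIP3 (ENSG00000176171, chr10:131966455-131982013), a mitophagy receptor known to be induced in hypoxia, read 37.6, 35.3 and 35.7 FPKM at 0 Gy and 40.3, 40.4 and 41.8 FPKM at 10 Gy. The groups did not overlap, and the mean rose 1.13-fold, from 36.2 ± 1.24 to 40.8 ± 0.874 FPKM, with a log2 change of 0.17 (SE 0.035, limma, adjusted p = 0.00995). BNIP3L (ENSG00000104765, chr8:26382898-26505636), its close relative NIX, read 21.7, 22.0 and 21.0 FPKM at 0 Gy and 21.9, 25.0 and 22.4 FPKM at 10 Gy. The groups overlapped and replicate 2 at 10 Gy stood above the rest. The log2 change was 0.09 with an interval of -0.03 to 0.22 (limma, adjusted p = 0.202), and BNIP3L was called higher after upper quartile or TPM scaling (adjusted p = 0.0317 and 0.0225) and by limma-voom on the recovered reads (0.0150). The ratio of BNIP3 to BNIP3L was 1.68 ± 0.0661 at 0 Gy and 1.77 ± 0.138 at 10 Gy (exact permutation p = 0.3, where 3 against 3 cannot go below 0.1).

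TFEB (ENSG00000112561, chr6:41683978-41736259) was the lowest member and read 0.515, 0.576 and 0.564 FPKM at 0 Gy and 0.734, 0.766 and 0.671 FPKM at 10 Gy, from 50 to 124 reads. All irradiated libraries lay above all controls, with a ratio of means of 1.31. A two-sided exact permutation test of log2(FPKM + 1) gave p = 0.1, the smallest that 3 against 3 can give. With the level filter lowered to 0.1 FPKM, so that TFEB entered the limma fit, its adjusted p was 0.14.

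**Figure D2:**
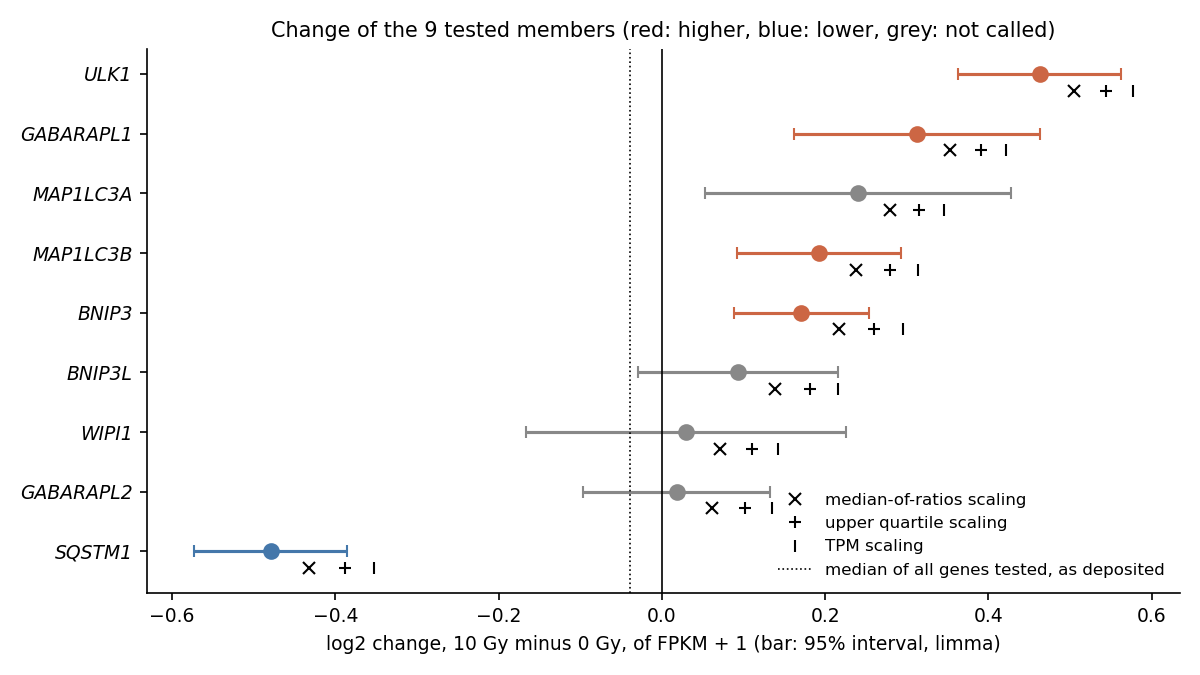
log2 change of FPKM + 1, 10 Gy minus 0 Gy, for the 9 tested genes, with 95% intervals from limma in red (higher), blue (lower) or grey (not called), and small marks for 3 other library scalings. Each of these scalings moves the 9 genes to the right, and SQSTM1 stays at -0.35 or below while ULK1 stays at 0.46 or above. The dotted line is the median of all genes, -0.04.

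Because many genes moved a little, the scaling between libraries set how the calls split. Of all called genes, 33.4% were higher as deposited, 48.7% after median-of-ratios, 63.9% after upper quartile and 74.5% after TPM scaling, and 60.2% by limma-voom. Summed FPKM itself was lower at 10 Gy, 246920 to 254918 against 269611 to 278380. Whether fewer cells that express a gene or less of its RNA per cell lay behind a lower level cannot be told apart in bulk libraries. TPM scaling moved the median of all genes by 0.11 on the log2 scale. These 5 settings are called scalings here, although limma-voom tests recovered reads and not rescaled FPKM + 1. For ULK1, GABARAPL1 and MAP1LC3A the upper ends of the ranges below came from limma-voom. Under the other settings their highest values were 0.51, 0.35 and 0.28. Relative to the median of all genes, the change over the 5 ranged from 0.50 to 0.56 for ULK1 and from 0.35 to 0.41 for GABARAPL1. The range was 0.28 to 0.30 for MAP1LC3A, 0.23 to 0.25 for MAP1LC3B and 0.21 to 0.23 for BNIP3. The change relative to the median ranged from 0.13 to 0.15 for BNIP3L, from 0.06 to 0.07 for GABARAPL2 and from -0.44 to -0.42 for SQSTM1. For WIPI1 it was 0.07 in all 5. ULK1, GABARAPL1, MAP1LC3B, BNIP3 and SQSTM1 kept their call and direction under each of the 5. For the genes that rose this was a weak check, since each other scaling moved changes upward.

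**Figure D3:**
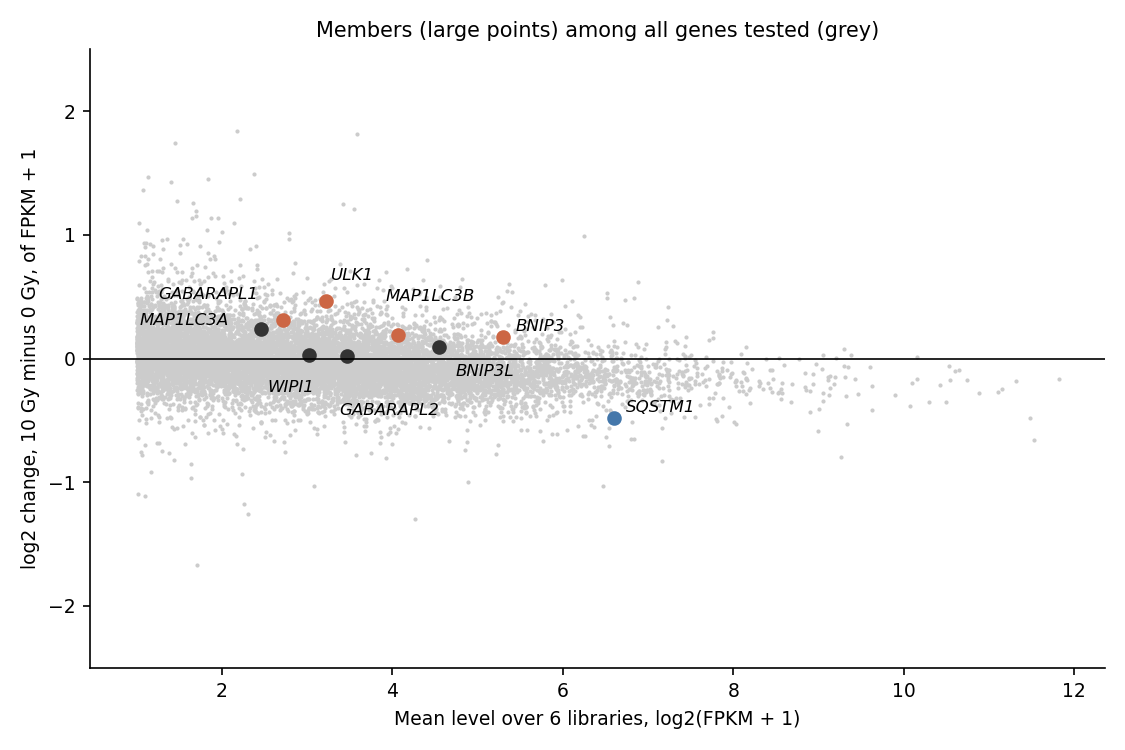
log2 change of FPKM + 1 against the mean level over 6 libraries, log2(FPKM + 1), for all 12128 genes tested (grey) and the 9 tested members (large points, red for higher, blue for lower, black for not called). Most genes with high levels lie below 0, and SQSTM1 lies lower than the bulk of them, whereas BNIP3 lies above 0 at a high level.

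Several loci are shared with other genes, and the strand setting of the counting is not given in the sources used here. On the opposite strand, SQSTM1 shares 555 bases with MGAT4B (48.9 FPKM at 0 Gy and 47.3 at 10 Gy) and 2946 with MRNIP, MAP1LC3B shares 8148 bases with FBXO31 (3.47 and 3.60 FPKM), and BNIP3L shares 951 bases with PNMA2 (4.51 and 6.10 FPKM). Without strand, reads in these stretches cannot be told apart, and how many reads fall there is not known. At 0 Gy the whole neighbouring gene had reads amounting to 31.4% of those of SQSTM1 for MGAT4B, 30.7% of MAP1LC3B for FBXO31, 27.1% of BNIP3L for PNMA2 and 14.7% of WIPI1 for ARSG, which shares 1784 bases, so the levels of these 4 members are uncertain. BNIP3 overlaps the antisense entries AL162274.1 and AL162274.2, and TFEB overlaps AL035588.1. The table also lists 43 copies of the members, 39 of them BNIP3 pseudogenes. Of these 39, 22 were at 0 in every library and the others had at most 32 reads in a library, and MAP1LC3B2 stood at 1.25 and 1.43 FPKM.

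Shares of all genes called, against which the counts below are read, were 11.9% higher and 23.7% lower as deposited. After median-of-ratios, upper quartile and TPM scaling and by limma-voom they were 16, 21.1, 25.8 and 23.4% higher and 16.9, 11.9, 8.83 and 15.5% lower, and the counts of a list under other scalings are given in this order. The other genes of the pathway were examined in 13 lists holding 145 genes, of which 134 were tested. These lists, too, were chosen with earlier results of these data known, so their counts are descriptive only. Over all of them 24 were called higher and 26 lower, 37.3% beside the 35.6% of all genes, with a median log2 change of 0.00. Each of the 24 genes called higher kept that call under all 5 scalings. This was a weak check, since each other scaling raised the median log2 change of all genes. That median went from -0.04 to 0.00, 0.04, 0.07 and 0.03, which favours higher calls and works against lower ones. All 26 genes called lower kept their sign, and 10 of them (ATG101, ATG3, TEX264, PGAM5, TFE3, PPP3CB, MLST8, PRKAG2, HK2 and ANGPTL4) kept the call.

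In the kinase complex that ULK1 belongs to, 3 of 4 genes were tested, and 1 rose and 1 fell as deposited. Under the other scalings 1, 2, 2 and 2 were called higher and 1 lower in each. The scaffold RB1CC1 (FIP200) rose from 6.92 ± 0.597 to 8.85 ± 0.378 FPKM (log2 change 0.32, adjusted p = 0.00845, limma), and the subunit ATG101 fell from 12.2 ± 1.11 to 9.25 ± 0.348 FPKM (-0.36, 0.00576). ULK2 was not tested, at 0.746 ± 0.0721 and 0.762 ± 0.131 FPKM. In the lipid kinase complex that makes PI3P, 4 of 8 tested genes rose and none fell, beside 11.9% and 23.7% of all genes, and under the other scalings 4, 5, 6 and 5 rose and none fell. These were PIK3C3, the catalytic subunit (2.17 to 2.69 FPKM), PIK3R4 (5.96 to 6.94), ATG14, which directs the complex to autophagy (6.75 to 7.88), and AMBRA1 (4.92 to 5.75), with log2 changes of 0.19 to 0.22. Of 8 tested genes for membrane supply and PI3P binding, the lipid transfer proteins ATG2A (15.1 to 18.1 FPKM, log2 change 0.24) and ATG2B (2.28 to 2.86, 0.24) rose as deposited, and 6, 6, 7 and 6 of the 8 were called higher under the other scalings.

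In the machinery that attaches ATG8 proteins to lipid, 4 of 10 tested genes fell and none rose as deposited, beside 23.7% and 11.9% of all genes, with a list median of -0.11 that became 0.00 after TPM scaling. Under each other scaling 1 was called lower, and 0, 1, 2 and 0 were called higher. The conjugating enzyme ATG3 fell from 10.4 ± 0.329 to 7.97 ± 0.202 FPKM (log2 change -0.34, adjusted p = 0.00122, limma) and kept the call under every scaling. ATG7 (4.08 to 3.44 FPKM), the protease ATG4C (7.70 to 6.76) and ATG5 (8.23 to 7.33) fell by 0.19, 0.17 and 0.15 on the log2 scale, and these calls were lost under each other scaling. Of 1 tested gene among the remaining ATG8 genes, MAP1LC3B2, none was called.

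Among other cargo and ER-phagy receptors, 9 were tested, and 1 rose and 1 fell as deposited. Under the other scalings 2, 4, 4 and 4 were called higher and 1 lower in each, and the list median went from -0.03 to 0.01 or more. TAX1BP1, a ubiquitin-binding receptor like p62, rose from 10.96 ± 0.343 to 12.9 ± 0.403 FPKM (log2 change 0.22, adjusted p = 0.00535, limma). The ER-phagy receptor TEX264 fell from 8.93 ± 0.441 to 6.60 ± 0.343 FPKM (-0.39, 0.00201). In the mitophagy list 1 of 9 tested genes rose and 3 fell as deposited, with a median of -0.01 that was above 0 under each other scaling. Under those scalings 1 was called higher in each, and 3, 1, 1 and 2 were called lower. The kinase PINK1, which marks damaged mitochondria, rose from 7.14 ± 0.465 to 8.24 ± 0.300 FPKM (0.18, 0.0309). PHB2 (118 to 103 FPKM), the phosphatase PGAM5 (27.5 to 23.1) and the mitochondrial ubiquitin ligase MARCH5 (15.7 to 13.9) fell by 0.19, 0.24 and 0.16 on the log2 scale, and of these calls only that of PGAM5 held under all 5 scalings.

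Of 13 tested genes of autophagosome-lysosome fusion, the tethering complex genes VPS18 (10.3 to 11.3 FPKM) and VPS39 (4.13 to 4.68) rose by 0.12 and 0.15 on the log2 scale, and the SNARE gene VAMP8 fell from 52.9 ± 3.89 to 46.7 ± 1.89 FPKM (log2 change -0.18, adjusted p = 0.0466, limma), a call lost under each other scaling. Under those scalings 3, 6, 7 and 6 of the 13 were called higher and none lower. Of 8 tested factors related to TFEB and their regulators, 2 fell and none rose as deposited. Under the other scalings 0, 0, 2 and 1 were called higher and 2 lower in each, and the list median went from -0.01 to above 0. TFE3, a relative of TFEB, went from 27.8 ± 0.180 to 23.3 ± 0.878 FPKM (-0.25, 0.00261), and PPP3CB, a calcineurin subunit, from 13.3 ± 1.20 to 9.84 ± 0.435 FPKM (-0.40, 0.00394). MITF was not called, at 2.23 and 2.04 FPKM. Of 18 lysosomal genes known as TFEB targets, all tested, 4 rose and 1 fell as deposited, beside 11.9% and 23.7% of all genes, with a median of 0.00. Under the other scalings 6, 8, 9 and 8 were called higher and 1, 1, 0 and 1 lower, with medians of 0.04 to 0.11. The largest rises were CTSF (6.68 to 8.56 FPKM, log2 change 0.32) and NEU1 (15.7 to 19.0, 0.26), and the fall was CTSD, a major lysosomal protease (129 to 107 FPKM, -0.26), a call that was lost after TPM scaling.

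Of 23 tested genes of mTORC1 and AMPK signalling, whose kinases hold back and activate ULK1 respectively, 9 fell and 1 rose as deposited. The median log2 change was -0.13, and -0.02 after TPM scaling. Under the other scalings 2, 2, 3 and 4 were called higher and 5, 2, 2 and 3 lower. TSC2, an inhibitor of mTORC1, rose from 4.95 ± 0.0764 to 5.95 ± 0.247 FPKM (log2 change 0.23, adjusted p = 0.00742, limma). The largest falls were those of MLST8, an mTORC1 subunit (16.3 to 12.5 FPKM, -0.35), and PRKAG2, an AMPK subunit (11.3 to 8.91 FPKM, -0.32). MTOR itself was not called, at 8.29 ± 0.881 and 9.13 ± 0.158 FPKM.

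BNIP3 is a hypoxia-inducible gene, and of 19 other tested genes of that kind 6 rose and 3 fell as deposited, beside 11.9% and 23.7% of all genes, and under the other scalings 7, 9, 10 and 9 were called higher and 3, 2, 2 and 2 lower. BHLHE40, a transcriptional repressor, rose from 15.4 ± 1.65 to 22.5 ± 0.804 FPKM (log2 change 0.52, adjusted p = 0.00249, limma) and DDIT4, an inhibitor of mTORC1, from 24.4 ± 2.68 to 32.9 ± 1.11 FPKM (0.42, 0.00494). The largest falls were the glycolytic enzyme HK2 (12.1 to 9.11 FPKM, -0.37) and ANGPTL4 (6.26 to 4.61 FPKM, -0.37). CA9 was listed at 0 in every library except replicate 1 at 10 Gy, at 0.02 FPKM. Among 5 tested autophagy genes linked to p53, TP53INP2, which aids LC3 attachment, rose from 7.63 ± 0.314 to 13.0 ± 0.166 FPKM (0.70, 0.000257), the largest rise of any list, and TP53INP1 from 1.46 ± 0.0523 to 2.33 ± 0.188 FPKM (0.43, 0.00307). DRAM1, a lysosomal membrane protein, fell from 10.6 ± 0.757 to 8.72 ± 0.408 FPKM (-0.25, 0.0153), a call lost after TPM scaling.

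**Figure D4:**
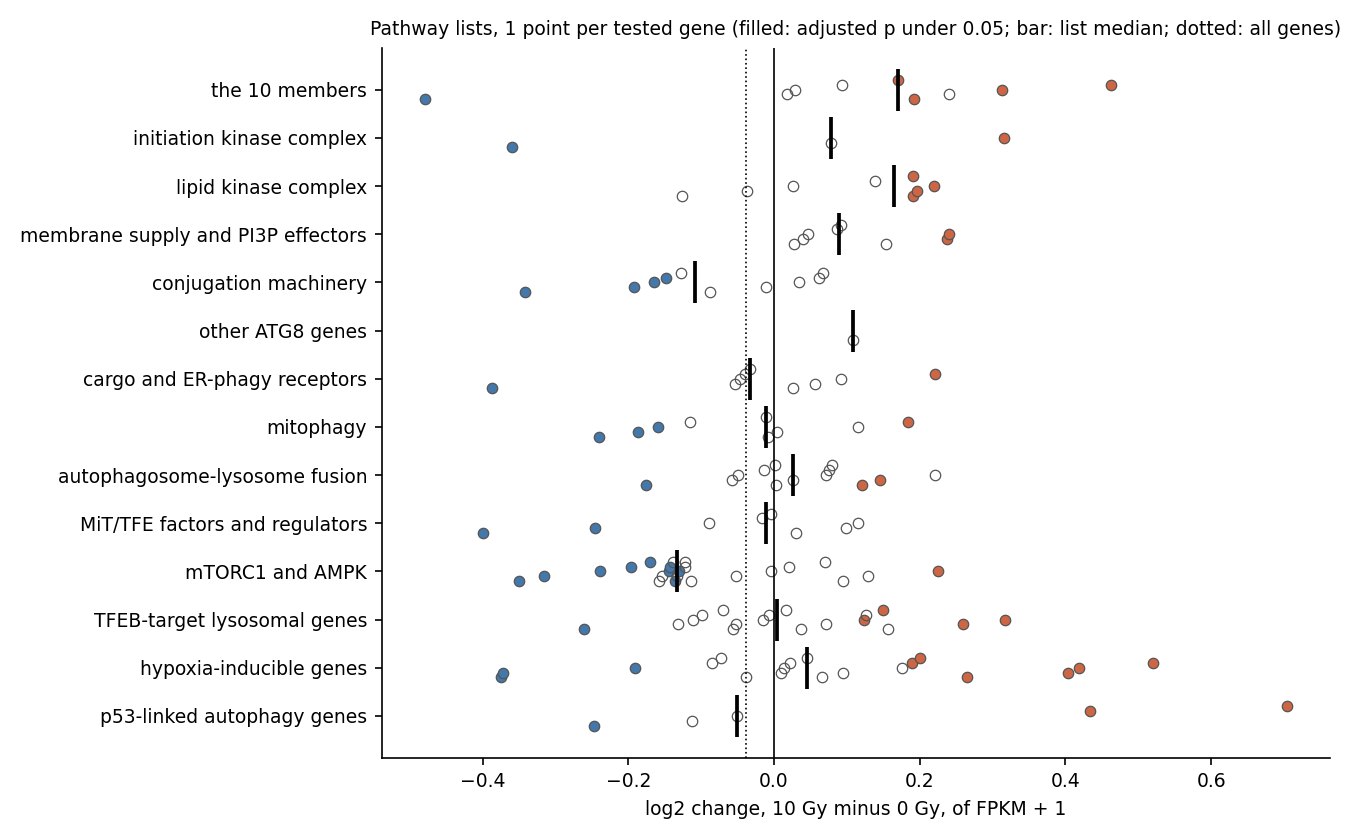
log2 change of FPKM + 1, 10 Gy minus 0 Gy, with 1 point per tested gene in each list, filled red (called higher), filled blue (called lower) or open (not called), a bar at each list's median and a dotted line at the median of all genes (-0.04). The lipid kinase complex has 4 filled points, all to the right, the conjugation machinery has 4, all to the left, and the 9 tested members spread from -0.48 to 0.46.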

How the data were processed

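Expression values of 6 libraries of MDA-MB-231 cells labelled SCR were analysed, 3 at 0 Gy and 3 taken 24 h after 10 Gy, grouped by their labels. Libraries were polyA-selected and sequenced as paired-end reads of 150 bases. The authors deposited FPKM values, and the submitters' processing notes name HISAT2 and GRCh38. The counting program, strand setting and scaling are not given in the sources used here. Identifiers and coordinates match GENCODE 29. Multiplying FPKM by gene length and by the depth implied for each library returned a whole number of reads for 100% of nonzero values, within a tolerance of 0.01. Implied depths were 0.973 to 0.991 times the recovered reads at 0 Gy and 1.03 to 1.04 times at 10 Gy. Some scaling had therefore been applied before deposit, and it lowered the 10 Gy values relative to the controls. With it 11.9% of all genes were called higher and 23.7% lower, and by limma-voom on the recovered reads 23.4% and 15.5%.

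Groups were compared two-sided on log2(FPKM + 1) with limma 3.58.1 in R 4.3.3 (eBayes, intensity trend), using the 12128 of 58735 genes whose mean reached 1 FPKM. A log2 change on this scale understates the change of low genes. limma-voom on the recovered reads was run as an alternative, and single ratios were compared by exact permutation. On simulated data of 12046 genes for this comparison, the procedure recovered 94.6% of 2-fold and 64.6% of 1.3-fold changes. Of the 157 genes called, 3.18% were unchanged. Far more genes were called in the data (4317), so the cutoff there was less strict and these rates do not carry over. The members and lists were chosen with earlier results of these data known. Named are all members, every called gene of a list or, in lists with over 4 called, the 2 largest rises and 2 largest falls, and the 5 genes most correlated with the member of lowest adjusted p. Copies and overlapping genes are summarised, and some listed genes are not reported here. Alternatives covered the pseudocount, level filter, scaling, eBayes settings, protein-coding genes alone, the replicate block and each replicate left out. Tables and figures were made with Python 3.11.15, pandas 2.3.3, scipy 1.17.1 and matplotlib 3.10.9.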

Additional observations from a re-analysis of the deposited data

How the results depend on the processing

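ULK1, GABARAPL1, BNIP3 and SQSTM1 kept their direction and call in all 18 alternatives, with log2 changes of 0.44 to 0.59, 0.28 to 0.44, 0.15 to 0.30 and -0.50 to -0.35. MAP1LC3B lost its call without replicate 2 at 10 Gy only, MAP1LC3A was called in 7 alternatives and BNIP3L in 3. GABARAPL2 and WIPI1 were called in none, and with single replicates left out their log2 changes ranged from -0.011 to 0.053 and from -0.058 to 0.082. Members called ranged from 4 to 6 with a replicate left out and from 5 to 7 in the other alternatives. All genes called, 4317 as reported, ranged from 2660 to 3993 with a replicate left out, the lowest being 2705 and 2660 without replicate 1 or 2 at 10 Gy, and from 2912 to 4728 otherwise. Of the pathway genes, 50 were called as reported, 30 to 46 with a replicate left out (33 and 30 without replicate 1 or 2 at 10 Gy) and 31 with every gene above 0 tested. Their split into higher and lower was 24 and 26 as deposited, 34 and 18 after median-of-ratios, 46 and 12 after upper quartile and 55 and 10 after TPM scaling, and 48 and 14 by limma-voom. With the replicate block, 3503 genes and 42 pathway genes were called, and the same members as without it. Same-numbered libraries had correlations of -0.04, -0.03 and -0.10 of their deviations from group means, and differently numbered ones -0.05 to 0.09. The labels do not say whether the numbers pair the libraries, and correlations of so few libraries cannot decide it. In the simulation, which called only 157 genes, 1.3-fold changes were often missed. How often they are missed in these data, where the cutoff is less strict, is not known. TFEB and MAP1LC3A had the fewest reads.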
